A study of Sus scrofa domesticus with 12 samples.

Results

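THY1, FAP, DPT, PDGFRA, PDGFRB, CTHRC1, FNDC1 and CD34 are markers of activated fibroblasts and of mesenchymal progenitors, and their transcripts were measured by RNA-seq in pig muscle after volumetric muscle loss (VML). The members were chosen by name, and all 8 were found among the 11506 genes of the expression table. PDGFRA and PDGFRB are listed there under the provisional identifiers LOC100627123 and LOC102166564, which were given these symbols by their RefSeq gene IDs in a later assembly than the authors' build, a match on which every PDGFRA and PDGFRB value rests. All 8 had at least 1 TPM (a level scaled for transcript length and to a common total per library) in every library of at least 1 condition, so all 8 were among the 8782 genes tested.

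Skeletal muscle holds a small population of fibroblasts and fibro-adipogenic progenitors between its fibers and vessels, which carry the PDGF receptor alpha chain and lay down the connective tissue of the muscle. After injury these cells multiply, secrete matrix and can become contractile myofibroblasts, and fibrosis is the state in which that matrix stays. PDGF ligands bind receptor chains that pair as homodimers or heterodimers, with the alpha chain typical of fibroblasts and the beta chain of pericytes and other mural cells of vessels. CD34 marks endothelial cells as well as stromal progenitors.

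The libraries came from 12 limbs of 11 female, young adult Yorkshire Cross pigs, harvested 12 weeks after surgery. VML was created in both hindlimbs by cutting a block of tissue out of the middle of the peroneus tertius (PT) muscle, and was left without a graft in the 2 non-repaired limbs, filled with a hyaluronan hydrogel (Hya) in 2 limbs and repaired with an extracellular matrix (ECM) device in 6. The 2 sham-operated limbs had surgery down to the muscle, which was left whole. The sample labels name SIS (small intestinal submucosa) for every limb of the ECM group, the study's text divides them between SIS and UBM (urinary bladder matrix), and they were kept as 1 group. Pig 017 gave a non-repaired limb and a Hya-repaired limb, each other pig gave a single limb, and the shams came from pigs 025 and 026. RNA was taken from pieces of whole muscle, so more cells of a type and more RNA per cell cannot be told apart.

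Genes of the muscle fiber held 21.1 and 21.5% of the listed TPM in the sham limbs and 1.32 to 10.1% in the injured limbs, the lowest in pig 014 and the highest in the Hya-repaired limb of pig 017. Among 15 tested genes of the fiber, 10 fell and none rose in VML-injured muscle, which is the mean of the 3 injured groups with equal weight, against 7.66% of all tested genes that fell. Log2 fold changes against sham had a median over the whole set of tested genes of 0.73 for VML-injured muscle, 0.71 with ECM repair, 0.89 without repair and 0.60 with Hya. TPM are shares of a library, and a trimmed mean rescaling, which sets the bulk of the genes level between libraries, brought these medians to -0.01, -0.02, -0.03 and 0.02. It changed the calls in VML-injured muscle from 4335 higher and 673 lower to 2535 higher and 2538 lower, with ECM repair from 4212 and 878 to 2571 and 2652, in the non-repaired group from 3960 and 104 to 1926 and 1877, and in the Hya-repaired group from 2974 and 330 to 2050 and 1741. The rescaled fold change is therefore given beside each member.

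Of the 8 members, 7 were higher in VML-injured than in sham-operated muscle, and CD34 did not pass the test. FNDC1, CTHRC1, THY1, DPT and FAP ranked 9th, 10th, 20th, 30th and 54th by fold change among the 8782 tested genes, and PDGFRA, PDGFRB and CD34 ranked 852nd, 986th and 3837th. Across all tested genes, limma called 49.4% higher in this comparison at an adjusted p under 0.05. The same 7 members were higher in the ECM-repaired, the non-repaired and the Hya-repaired group, where 48.0%, 45.1% and 33.9% of all tested genes were higher. After the rescaling, 7 members remained higher in VML-injured and in Hya-repaired muscle and 6 in the ECM-repaired and the non-repaired group, against 28.8%, 23.3%, 29.2% and 21.9% of genes. The median log2 fold change of the members was 5.37 in VML-injured muscle, and 4.61 after the rescaling. All 10 injured limbs lay above both shams for 7 members, as they did for 49.8% of all tested genes, and for 6 members after the rescaling, against 28.6%. All 3 injured groups were compared with the same 2 sham limbs, so their fold changes are not independent of one another.

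**Figure D1:**
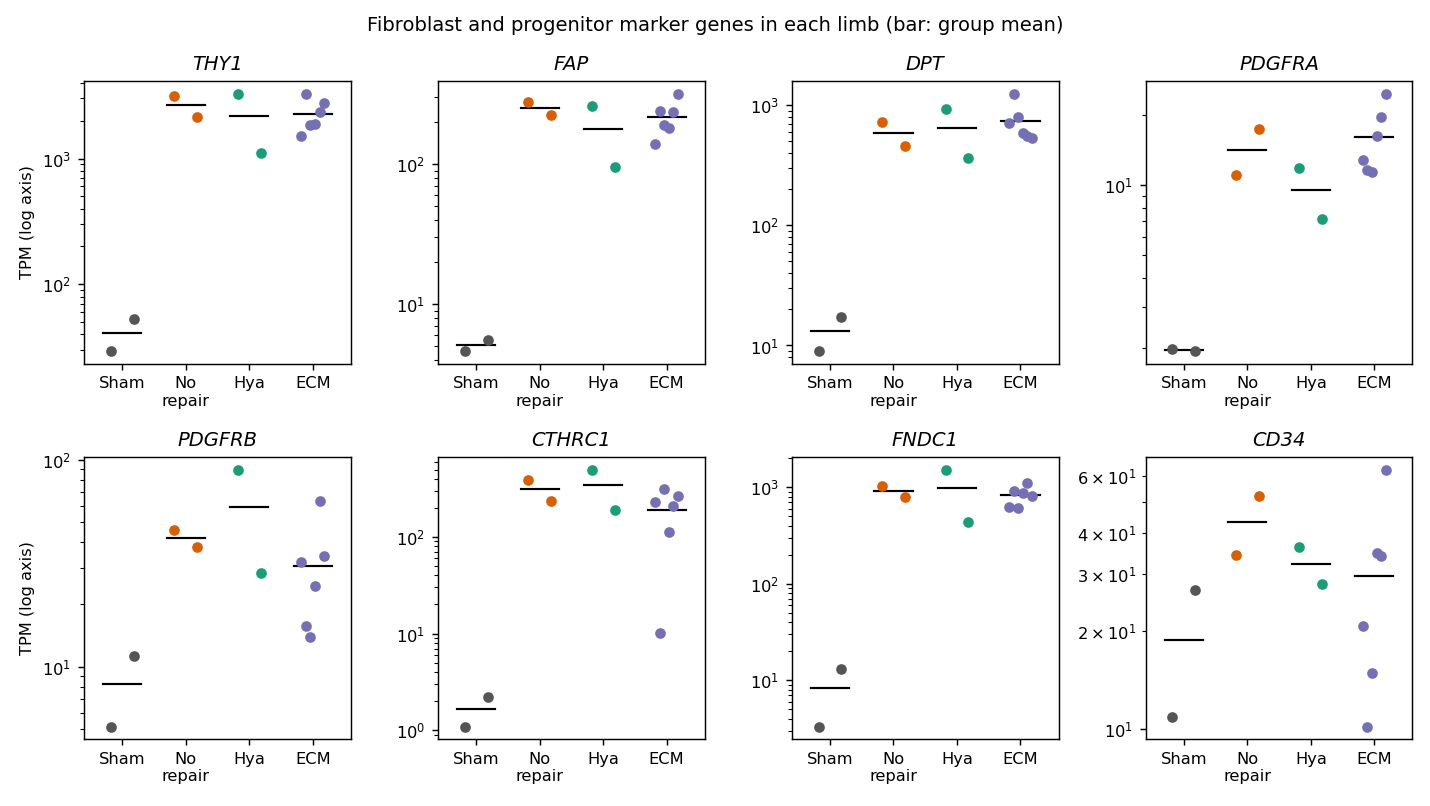
TPM of each member (vertical log axis, with its own range in each panel) in every limb, with 1 point per limb and a bar at the mean of each condition. Each injured limb lies above both shams for 7 genes (as for 49.8% of all tested genes), the 6 ECM-repaired limbs include 1 at 10.01 TPM for CTHRC1, and the sham and injured limbs overlap for CD34.

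THY1 encodes a glycolipid-anchored surface protein by which fibroblasts and stromal cells are commonly identified. Its level was 29.6 and 52.6 TPM in the sham limbs of pigs 025 and 026, and 3150 and 2145 TPM in the non-repaired limbs of pigs 017 and 023. The Hya-repaired limbs of pigs 016 and 017 held 3263 and 1099 TPM, and the ECM-repaired limbs ranged from 1514 in pig 013 to 3232 in pig 014, with a median of 2113. The lowest injured limb thus stood 20.9-fold over the higher sham, and the 3 injured groups overlapped. The log2 fold change was 5.79 in VML-injured muscle (SE 0.41, limma adjusted p = 7.91e-07) and 4.99 after the rescaling.

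FAP encodes fibroblast activation protein, a membrane-bound serine protease that is scarce in resting tissue. The sham limbs of pigs 025 and 026 held 4.64 and 5.57 TPM. It stood at 275 and 225 TPM in the non-repaired limbs of pigs 017 and 023, at 262 and 95.9 TPM in the Hya-repaired limbs of pigs 016 and 017, and at 140 to 317 TPM in the ECM-repaired limbs, with a median of 213. Every injured limb was above both shams, by 17.2-fold at the least, with the Hya-repaired limb of pig 017 the lowest and the ECM-repaired limb of pig 024 the highest. Its log2 fold change was 5.18 in VML-injured muscle (SE 0.35, limma adjusted p = 6.56e-07) and 4.43 after the rescaling. By group it was 5.24 in ECM-repaired, 5.48 in non-repaired and 4.83 in Hya-repaired limbs.

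CD34 encodes a sialomucin of endothelial cells and stromal progenitors. Its level was 10.9 and 26.7 TPM in the sham limbs, 34.3 and 52.0 TPM in the non-repaired limbs of pigs 017 and 023, and 36.3 and 27.9 TPM in the Hya-repaired limbs of pigs 016 and 017. Among the ECM-repaired limbs it ran from 10.2 TPM in pig 014 to 62.7 TPM in pig 024, with a median of 27.4. The groups overlapped, with 7 of 10 injured limbs above both shams, 2 between them and pig 014 below both. The log2 fold change in VML-injured muscle was 0.89 with a 95% interval from -0.30 to 2.08 (limma adjusted p = 0.178), which holds no change as well as a rise of several-fold. After the rescaling it was 0.11 (limma adjusted p = 0.835), with 2 of 10 injured limbs above both shams. By group the log2 fold change was 0.53 with ECM repair, 1.28 without repair and 0.87 with Hya, none of which passed the test, and the first turned to -0.25 under the rescaling.

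DPT encodes dermatopontin, a small matrix protein that binds decorin and helps collagen fibrils to assemble. It was at 9.02 and 17.4 TPM in the sham limbs, at 717 and 459 TPM in the non-repaired limbs of pigs 017 and 023 and at 935 and 361 TPM in the Hya-repaired limbs of pigs 016 and 017. The ECM-repaired limbs spanned 537 to 1238 TPM with a median of 645, and pig 014 held the most of all limbs. No injured limb came within 20.7-fold of the higher sham, and the 3 injured groups overlapped. The log2 fold change was 5.56 (SE 0.40, limma adjusted p = 9.60e-07) in VML-injured muscle and 4.78 after the rescaling.

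CTHRC1 encodes a secreted glycoprotein of collagen-producing fibroblasts at sites of repair, which also takes part in Wnt signaling. The sham limbs held 1.09 and 2.20 TPM, the lowest sham mean of the 8 genes. The non-repaired limbs of pigs 017 and 023 held 394 and 236 TPM and the Hya-repaired limbs of pigs 016 and 017 held 499 and 191 TPM. In the ECM-repaired limbs CTHRC1 was 233 TPM in pig 013, 10.01 in pig 014, 312 in pig 018, 114 in pig 021, 211 in pig 022 and 267 in pig 024. Pig 014 thus lay apart, 11.4-fold under the next-lowest injured limb, though still 4.56-fold above the higher sham.

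A gap of that size between the lowest and the next-lowest of the 10 injured limbs was found for 7 of the 8782 tested genes (0.0797%), and CTHRC1 was the only 1 of those 7 with its low value in pig 014. The same library held the highest THY1 and DPT and the second highest FAP of the ECM-repaired limbs. CTHRC1 had a log2 fold change of 6.80 in VML-injured muscle (SE 1.04, limma adjusted p = 0.000278) and 6.15 after the rescaling. Against sham it was 5.98 in the ECM-repaired group with pig 014 and 6.71 without it, and 7.21 and 7.22 in the non-repaired and Hya-repaired groups.

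FNDC1 encodes a large secreted protein with fibronectin type III domains, whose role in muscle is little described. The shams differed here more than for any other member, with 3.31 TPM in pig 025 and 13.1 TPM in pig 026. The non-repaired limbs of pigs 017 and 023 held 1020 and 794 TPM, the Hya-repaired limbs of pigs 016 and 017 held 1522 and 437 TPM, and the ECM-repaired limbs ranged from 605 to 1113 TPM with a median of 842. The 2 extremes of all injured limbs were both Hya-repaired, and even the lower was 33.3-fold above the higher sham, the widest separation of the 8 genes. Its log2 fold change in VML-injured muscle, 6.87 (SE 0.48, limma adjusted p = 7.72e-07), was also the largest of the 8, and CTHRC1 took that place after the rescaling with 6.15 against 6.11.

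PDGFRA encodes the alpha receptor for platelet-derived growth factor and marks fibro-adipogenic progenitors. Its level was 1.98 and 1.95 TPM in the shams, 11.1 and 17.4 TPM in the non-repaired limbs of pigs 017 and 023 and 11.9 and 7.16 TPM in the Hya-repaired limbs of pigs 016 and 017. The ECM-repaired limbs held 11.4 to 24.7 TPM, with a median of 14.6 and the most in pig 024. Each injured limb was at least 3.61-fold over both shams. PDGFRA rose by 2.41 on the log2 scale in VML-injured muscle (SE 0.32, limma adjusted p = 5.81e-05) and by 1.72 after the rescaling. By group it was 2.69 with ECM repair, 2.55 without repair and 1.98 with Hya.

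PDGFRB encodes the beta receptor, found on pericytes and on fibroblasts of healing tissue. The shams of pigs 025 and 026 held 5.14 and 11.3 TPM and the non-repaired limbs of pigs 017 and 023 held 45.8 and 37.9 TPM. The Hya-repaired limbs held 89.6 TPM in pig 016 and 28.5 TPM in pig 017, and the ECM-repaired limbs 13.9 TPM in pig 018 to 63.4 TPM in pig 022, with a median of 28.2. All injured limbs were above both shams, but pig 018 exceeded the higher sham by 1.23-fold alone and fell below it after the rescaling. The log2 fold change was 2.25 in VML-injured muscle (SE 0.53, limma adjusted p = 0.00362) and 1.49 after the rescaling (limma adjusted p = 0.0160). The call depended on the setting: with the rescaling it was lost in the ECM-repaired group (1.00, limma adjusted p = 0.0897) and in the non-repaired group (1.42, limma adjusted p = 0.0666). Without the sham limb of pig 025 it was lost in all 4 comparisons, where it then stood at 1.72 for VML-injured muscle (limma adjusted p = 0.0871), 1.21 with ECM repair (limma adjusted p = 0.209), 1.84 without repair (limma adjusted p = 0.120) and 2.12 with Hya (limma adjusted p = 0.0989). It was also lost in the non-repaired group without the limb of pig 017 (2.23, limma adjusted p = 0.0664) and in the Hya-repaired group without that of pig 016 (1.83, limma adjusted p = 0.136).

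**Figure D2:**
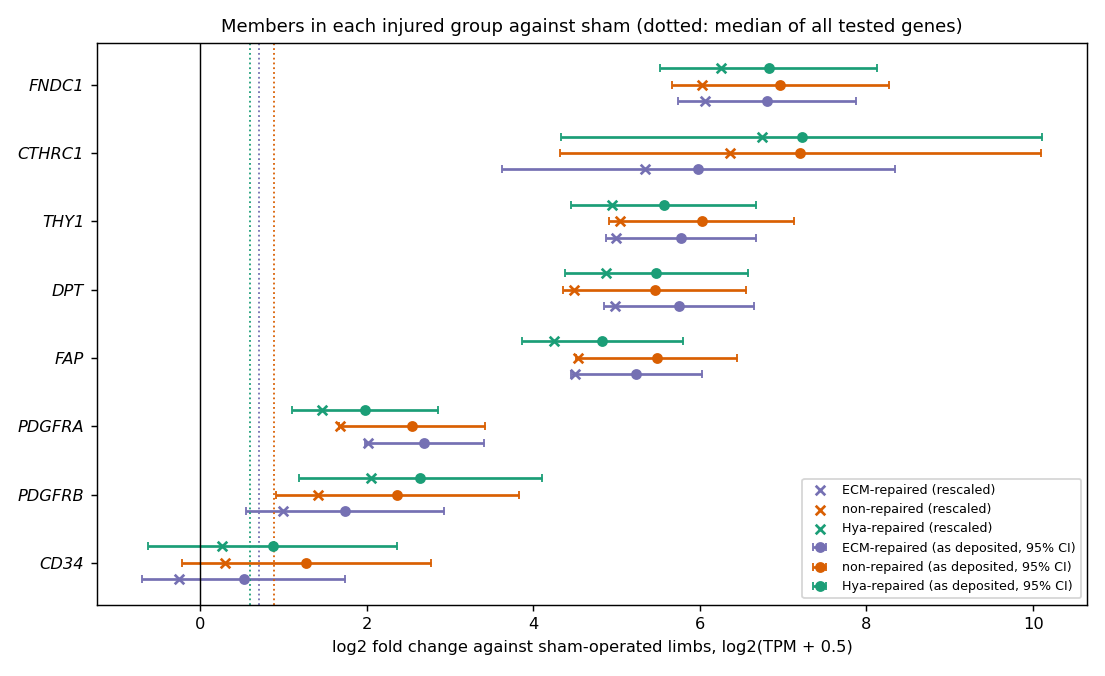
Log2 fold change of each member against sham-operated limbs (horizontal axis, on log2(TPM + 0.5)) in the 3 injured groups. Circles with 95% intervals are TPM as deposited, crosses are rescaled values, and dotted lines are the medians of all tested genes at 0.71, 0.89 and 0.60, close to which CD34 lies.

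As a test with no model of the variance, the mean log2(TPM + 0.5) of the 10 injured and the 2 sham limbs was compared over all 66 splits of the limbs. For THY1, FAP, DPT, PDGFRA, PDGFRB, CTHRC1 and FNDC1 the two-sided exact permutation p was 0.0152, the smallest that this design can give, which 52.0% of all tested genes reached as deposited and 51.7% after the rescaling. For CD34 the exact permutation p was 0.273. After the rescaling PDGFRB had an exact permutation p of 0.0455 and CD34 of 0.970, and the other 6 members were again at 0.0152.

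By median TPM over the injured limbs, the members ran from THY1 at 2247 through FNDC1 at 842, DPT at 645, CTHRC1 at 234, FAP at 230, CD34 at 34.2 and PDGFRB at 33.0 to PDGFRA at 12.4. Within limbs, THY1 exceeded FNDC1, DPT exceeded CTHRC1, FAP exceeded CD34 and PDGFRB exceeded PDGFRA in 10 of 10 injured limbs. Neighbors in that order were not separated for FNDC1 and DPT (FNDC1 higher in 7 of 10), CTHRC1 and FAP (CTHRC1 higher in 6) and CD34 and PDGFRB (CD34 higher in 4). In the sham limbs CD34 was second to THY1 at a median of 18.8 TPM and CTHRC1 was the lowest at 1.64 TPM. The spread among the 10 injured limbs, as the highest over the lowest level, was 2.97-fold for THY1, 3.31-fold for FAP, 3.43-fold for DPT, 3.45-fold for PDGFRA and 3.48-fold for FNDC1. It was 6.15-fold for CD34, 6.45-fold for PDGFRB and 49.9-fold for CTHRC1.

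The repair groups were next compared among themselves, since the study asked whether an ECM device changes the state of the injured muscle. No member was called between ECM-repaired limbs and injured limbs without ECM, between Hya-repaired and non-repaired limbs, or between ECM-repaired limbs and either of those groups (limma, adjusted p under 0.05), and 0% of all tested genes were called in each. At an unadjusted p under 0.05, limma gave 114, 196, 71 and 206 genes in these 4 comparisons, and no member among them. The lowest unadjusted p was that of PDGFRA, which averaged 16.1 ± 5.28 TPM (SD, n = 6) in ECM-repaired and 9.53 ± 3.36 TPM (SD, n = 2) in Hya-repaired limbs, a log2 difference of 0.71 with a 95% interval from -0.01 to 1.43. PDGFRB differed the other way, at 30.6 ± 18.1 TPM (SD, n = 6) against 59.0 ± 43.2 TPM (SD, n = 2), a log2 difference of -0.90 with an interval from -2.09 to 0.29.

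For the remaining members the intervals between ECM-repaired limbs and injured limbs without ECM show what size of difference these limbs could hold. THY1 differed by -0.02 on the log2 scale with a 95% interval from -0.74 to 0.69, FAP by 0.08 from -0.54 to 0.70, DPT by 0.28 from -0.43 to 0.99 and FNDC1 by -0.09 from -0.93 to 0.75. CD34 differed by -0.55, with an interval from -1.52 to 0.42. CTHRC1 differed by -1.23, with an interval from -3.10 to 0.63, and by -0.51 without pig 014. The Hya-repaired limb of pig 017 was the lowest injured limb for THY1, FAP, DPT, PDGFRA and FNDC1 and that of pig 016 was the highest for THY1, PDGFRB, CTHRC1 and FNDC1. For PDGFRA and CD34 the 2 Hya-repaired limbs covered a smaller part of the injured range, at 7.16 to 11.9 TPM of 7.16 to 24.7 and 27.9 to 36.3 TPM of 10.2 to 62.7.

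Those 2 limbs also stood near the ends in muscle content. Fiber genes held 1.54% of the listed TPM in pig 016 and 10.1% in the Hya-repaired limb of pig 017. DPT was 1238, 935 and 798 TPM in the 3 limbs with the least fiber RNA (pigs 014, 016 and 018) and 459 and 361 TPM in the 2 with the most (non-repaired pig 023 and Hya-repaired pig 017). PDGFRA showed no such order, with 11.6, 11.9 and 11.4 TPM in the first 3 limbs and 24.7 TPM in pig 024, where fiber genes held 5.88%. CD34 was low in pigs 014 and 018, at 10.2 and 14.9 TPM, and high in pigs 024 and 023, at 62.7 and 52.0 TPM. It did not follow the order throughout, with 36.3 TPM in pig 016 and 27.9 TPM in the Hya-repaired limb of pig 017. The part of the muscle share in these levels was not tested.

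**Figure D3:**
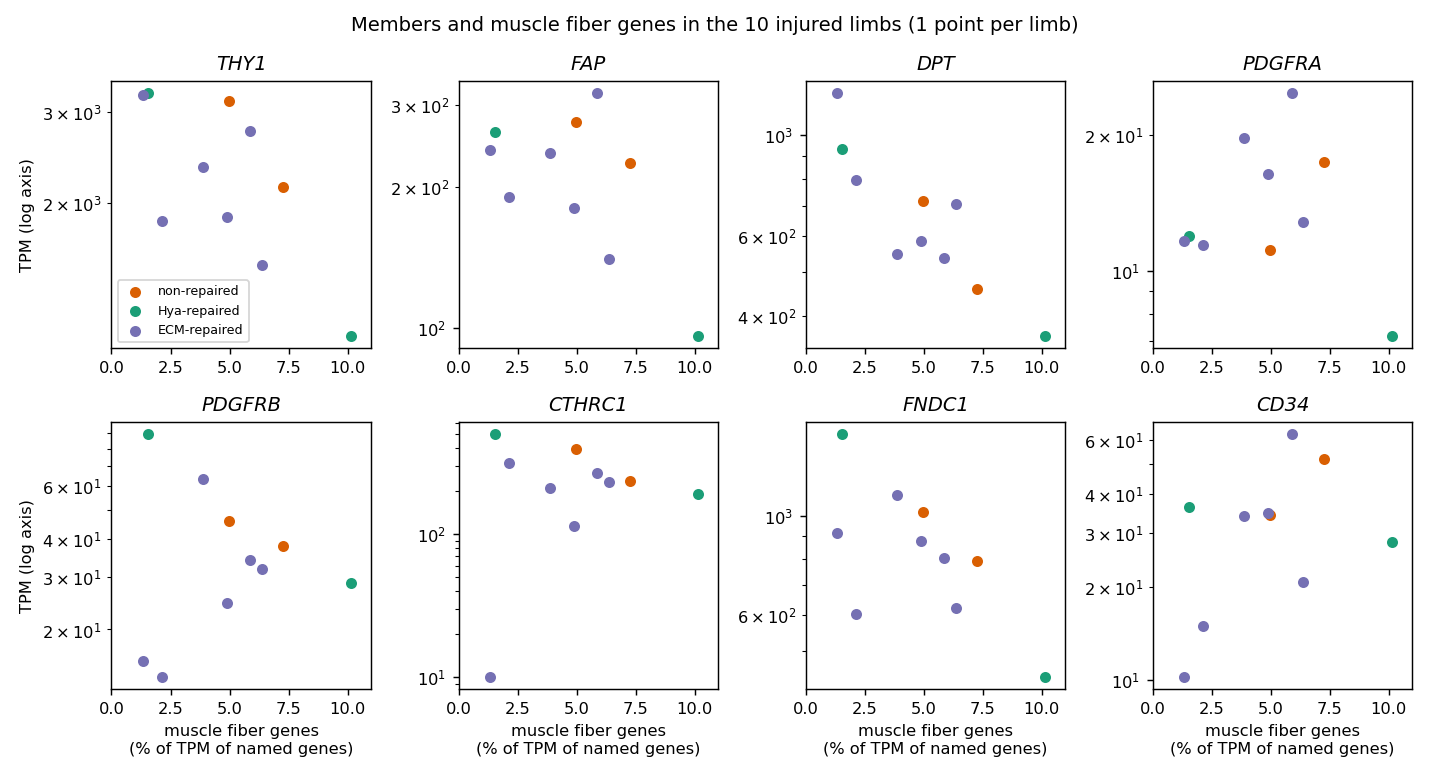
TPM of each member (vertical log axis) against the share of the listed TPM held by muscle fiber genes (horizontal axis, %) in the 10 injured limbs, with 1 point per limb colored by group. DPT is at 1238 TPM where the share is 1.32% and at 361 TPM where it is 10.1%, while PDGFRA and CD34 peak in pig 024, at a share of 5.88%.

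Ratios of genes within a library do not depend on how the libraries are scaled, and 5 were taken as descriptions. CTHRC1 over DPT was 0.121 and 0.126 in the shams and 0.514 to 0.549 in the 4 injured limbs without ECM. It was 0.00809 in pig 014 and at most 0.497 in the ECM-repaired limbs (pig 024), close under the 0.514 of non-repaired pig 023. How many other gene ratios part these groups was not counted, and neither gene was called between them. FAP over DPP4, its closest homolog and a protease of resting progenitors, was 0.715 and 0.900 in the shams and between 6.54 and 25.7 in the injured limbs.

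CD34 over PECAM1, an adhesion molecule of endothelial cells, lay between 0.188 and 0.307 in all 12 limbs. Among the injured limbs that ratio varied 1.58-fold and the level of CD34 itself varied 6.15-fold. PDGFRA over PDGFRB was 0.386 and 0.172 in the shams and ran from 0.133 in the Hya-repaired limb of pig 016 to 0.822 in the ECM-repaired limb of pig 018. Its median was 0.696 in ECM-repaired limbs and 0.247 in the injured limbs without ECM. These groups overlapped, with ECM-repaired pigs 022 and 013 at 0.310 and 0.403 and non-repaired pig 023 at 0.459. THY1 over PDGFRA was 14.9 and 27.0 in the shams and 111 to 284 in the injured limbs.

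**Figure D4:**
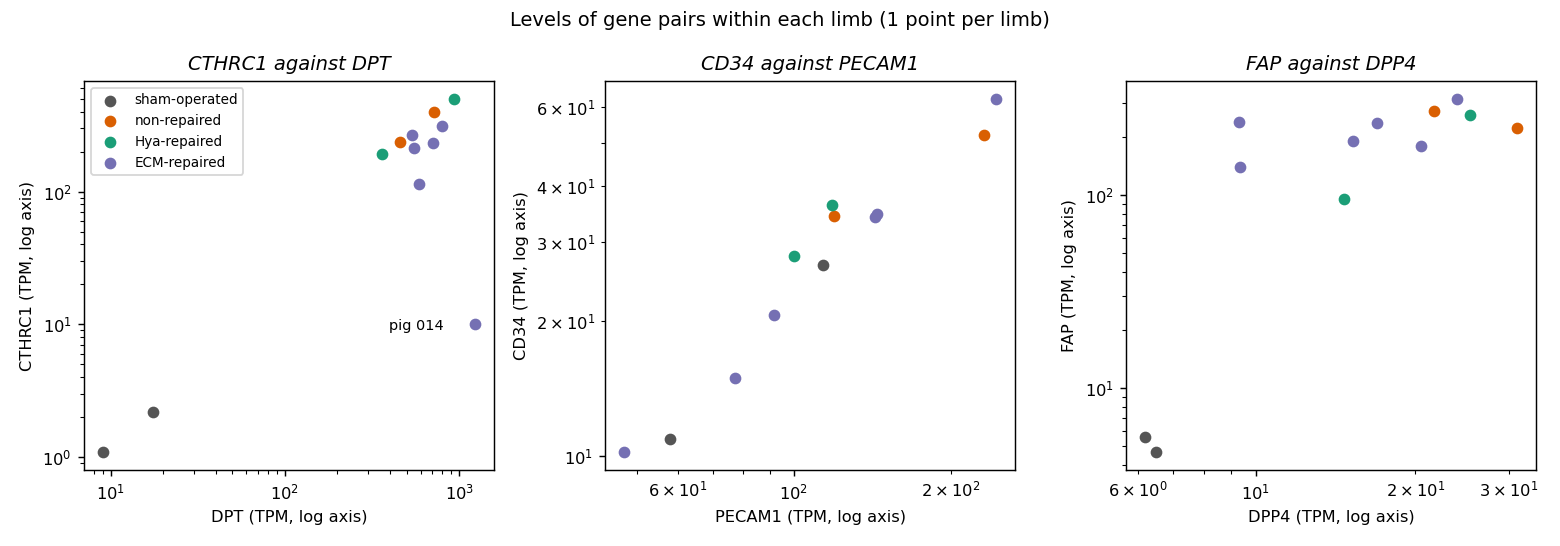
CTHRC1 against DPT, CD34 against PECAM1 and FAP against DPP4 (TPM, log axes), with 1 point per limb colored by group. Pig 014 lies far below the other injured limbs for CTHRC1 at the highest DPT, CD34 and PECAM1 lie along a line that takes in the shams, and FAP is at 95.9 TPM or more in every injured limb against 5.57 TPM or less in the shams.

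Among the injured limbs, THY1 went with FAP (Pearson r = 0.93, Spearman rho = 0.88, over 10 limbs) and with FNDC1 (r = 0.85, rho = 0.86), and FAP with FNDC1 (r = 0.77, rho = 0.67). Correlations of middling size included those of CD34 with PDGFRB (r = 0.63, rho = 0.60), CTHRC1 (r = 0.61, rho = 0.41), PDGFRA (r = 0.554, rho = 0.576) and DPT (r = -0.63, rho = -0.46). Others were those of PDGFRB with FNDC1 (r = 0.64, rho = 0.65) and CTHRC1 (r = 0.568, rho = 0.515), of THY1 with DPT (r = 0.64, rho = 0.55) and of FAP with PDGFRA (r = 0.64, rho = 0.29). CTHRC1 had a Pearson's r of -0.14, 0.04 and 0.06 with THY1, FAP and FNDC1 and a Spearman's rho of 0.32, 0.49 and 0.21. These correlations of log2(TPM + 0.5) describe limbs that differ in muscle content and share the closure of TPM, and carry no test.

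Over all 12 libraries, the genes outside the 8 that were most like FNDC1 were MMP2, a gelatinase, BGN, which encodes the proteoglycan biglycan, and FKBP10, a collagen chaperone (r = 0.999, 0.998 and 0.997), and MMP2 stayed among the closest over the injured limbs alone (r = 0.981). FAP was most like DCN, SEC24D and RNF135 (r = 0.997, 0.997 and 0.996), and THY1 most like BEND6, BGN and MSC (r = 0.998, 0.996 and 0.995). DPT was nearest to SRPX2, CAPG and LOC100513211 (r = 0.995, 0.994 and 0.994), and PDGFRA to IFITM1, GRAMD3 and MAMDC2 (r = 0.987, 0.984 and 0.984). Much of such a likeness over 12 libraries is the step from sham to injured that many genes share. CTHRC1 had CHCHD4, MGAT5 and LOC102160712 (r = 0.950, 0.942 and 0.941).

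PDGFRB was nearest to FUK, COL4A2, a basement membrane collagen, and KLHDC8B (r = 0.968, 0.957 and 0.956). CD34 was nearest to VWA1, a matrix protein of basement membranes, RSRP1 and PECAM1 (r = 0.976, 0.973 and 0.972). Over the 10 injured limbs alone the nearest were HOXD12, USB1 and TIMP2 for THY1 (r = 0.966, 0.949 and 0.948), LOC100519808, MAPK3 and NDRG3 for FAP (r = 0.978, 0.970 and 0.967), S100A14, BORCS5 and PFN1 for DPT (r = 0.969, 0.944 and 0.937), and SLC35A2, MMP2 and HM13 for FNDC1 (r = 0.984, 0.981 and 0.980). They were SLC25A15, IFITM1 and GRAMD3 for PDGFRA (r = 0.973, 0.947 and 0.943), SLC3A2, ZXDC and PLXNB1 for PDGFRB (r = 0.970, 0.957 and 0.940) and UBN2, CCNL1 and RSRP1 for CD34 (r = 0.994, 0.993 and 0.989). CTHRC1 had CDKN2D, TTC4 and CHCHD4 (r = 0.912, 0.852 and 0.835), of which TTC4 had a rank correlation of 0.24, so that its r rests on few limbs.

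The PDGF receptors have ligands and signaling partners, of which 8 were tested: 6 were higher in VML-injured muscle and 0 lower, with a median log2 fold change of 1.75, and 5 higher and 1 lower after the rescaling, against 49.4% of all tested genes higher as deposited and 28.8% in each direction after the rescaling. PDGFA, a ligand of the alpha receptor, was 9.95 and 8.54 TPM in the shams and 10.5 to 28.4 TPM in the injured limbs. Each injured limb was above both shams, as for 49.8% of all tested genes. Its log2 fold change of 0.82 did not pass (limma adjusted p = 0.0602) and was near the median of 0.73 for all tested genes. After the rescaling it was 0.04. PDGFD, a ligand of the beta receptor, was 0.44 and 0.99 TPM in the shams and 2.30 to 14.8 TPM in the injured limbs, and rose by 2.11 on the log2 scale (limma adjusted p = 0.000834). Its highest level was in the ECM-repaired limb of pig 024, which also held the most PDGFRA. PDGFB and PDGFC were not analysed here.

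PDGFRL encodes a receptor-like protein and, like PDGFRA and PDGFRB, was named through a RefSeq gene ID, here from LOC100736738. Its level went from 6.26 and 8.20 TPM in the shams to between 46.0 and 97.2 TPM in the injured limbs. That was a rise of 3.18 on the log2 scale (limma adjusted p = 1.27e-06), larger than that of either receptor. SHC1, an adaptor of receptor tyrosine kinases, rose by 1.91 (limma adjusted p = 0.000475). SPARC, a matrix protein that binds PDGF, averaged 2884 ± 1840 TPM (SD, n = 10) in injured limbs but was at 127 TPM in pig 021, between the 2 shams at 87.9 and 142 TPM.

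Of 12 tested genes whose proteins are partners, substrates or homologs of the other members, 8 were higher and 1 was lower in VML-injured muscle, and 8 higher and 3 lower after the rescaling, where those all-gene shares again were 49.4% higher and 28.8% in each direction. The integrin chains ITGAV, ITGB3 and ITGB5, which pair as receptors of matrix proteins and among which THY1 finds its ligands, rose by 2.17, 1.71 and 3.36 on the log2 scale (limma adjusted p = 0.00133, 0.00756 and 8.66e-06). DCN, the decorin that DPT binds, rose by 3.49 (limma adjusted p = 2.87e-06), with 185 ± 2.52 TPM in the shams (SD, n = 2) and 2140 ± 526.1 TPM in the injured limbs (SD, n = 10).

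Other genes of activated fibroblasts and myofibroblasts moved in the same direction as the members. Of 16 tested, all 16 were higher in VML-injured muscle, with a median log2 fold change of 4.10 against 0.73 for all tested genes, and 14 after the rescaling, where 49.4% and 28.8% of all tested genes were higher. POSTN, the matrix protein periostin, averaged 11.4 ± 6.07 TPM in the shams (SD, n = 2) and 1918 ± 749 TPM in the injured limbs (SD, n = 10), a rise of 7.33 on the log2 scale, and COL8A1, a short-chain collagen, rose by 6.67 (limma adjusted p = 3.04e-07 and 8.19e-07). Of the cytoskeletal genes named, TAGLN rose by 2.42 (limma adjusted p = 0.000118), and ACTA2, the smooth muscle actin of myofibroblasts, by 1.26 (limma adjusted p = 0.0145), a call that was lost after the rescaling (0.46, limma adjusted p = 0.312).

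Of 15 tested genes of resting fibroblasts and fibro-adipogenic progenitors, 10 were higher and 0 lower, with a median of 1.55, and 8 were higher after the rescaling, against 49.4% and 28.8% of all tested genes. PI16, of a progenitor state common to many tissues, rose by 4.16, with 13.3 ± 3.95 TPM in the shams (SD, n = 2) and 260 ± 101 TPM in the injured limbs (SD, n = 10), and LUM, a collagen-binding proteoglycan, and IGFBP6, which binds insulin-like growth factors, rose by 4.27 and 4.33 (limma adjusted p = 2.23e-06, 3.18e-07 and 1.33e-06). DPP4 and CD55 rose by 1.55 and 1.45 (limma adjusted p = 0.00292 and 0.0252), of which CD55 did not pass after the rescaling. SPARC and DPP4 each stand in 2 of these lists, and 7 of the 22 resting genes were not analysed here.

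**Figure D5:**
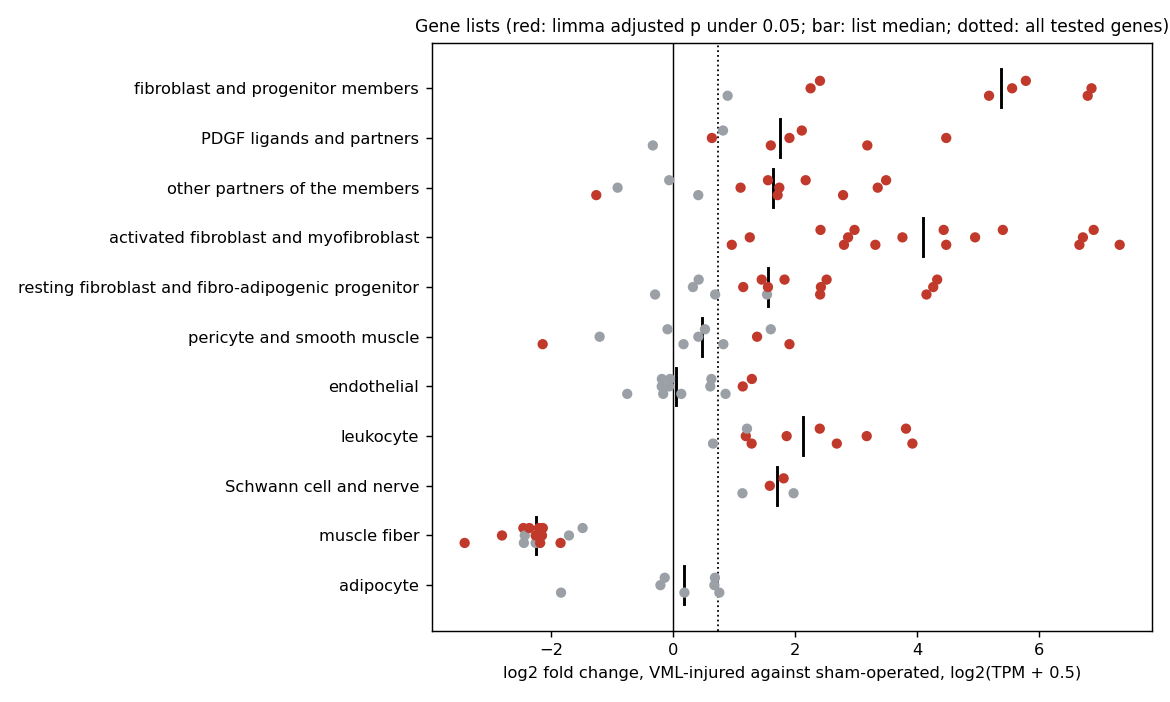
Log2 fold change in VML-injured against sham-operated muscle (horizontal axis, on log2(TPM + 0.5)) for the tested genes of each list, with 1 point per gene. Red marks a limma adjusted p under 0.05, the bar the list median and the dotted line the median of all tested genes at 0.73; activated fibroblast genes and the members reach furthest right (medians of 4.10 and 5.37), endothelial genes lie near 0 (0.04) and muscle fiber genes lie left (-2.26).

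Markers of the vessel wall, where PDGFRB and CD34 are also expressed, moved little as TPM. Of 10 tested pericyte and smooth muscle genes, 2 were higher and 1 lower in VML-injured muscle, with a median of 0.47, and 0 higher and 3 lower after the rescaling. Among all tested genes 49.4% were higher and 7.66% lower as deposited, and 28.8% in each direction after the rescaling. RGS5, KCNJ8 and ABCC9, which mark pericytes, had log2 fold changes of 0.17, 0.82 and -1.21, none past the test as deposited. Of these, ABCC9 was lower after the rescaling (-1.995, limma adjusted p = 0.0113). HIGD1B and CSPG4 rose by 1.38 and 1.91 (limma adjusted p = 0.0178 and 0.0193), neither after the rescaling. Summed pericyte and smooth muscle genes held 0.0598 and 0.0721% of the listed TPM in the shams and 0.0190 to 0.0632% in the injured limbs, with 9 injured limbs under both shams. A large part of that sum in the shams was SYNPO2, which muscle fibers also express, at a mean of 286 TPM in sham and 76.3 TPM in injured limbs. Without SYNPO2, a choice made after seeing the data, the other 9 genes held 0.0174 and 0.0361% in the shams and 0.0172 to 0.0454% in the injured limbs, with 2 limbs above both shams, 7 between them and 1 below. PDGFRB was above both shams in 10 of 10 injured limbs, as were 49.8% of all tested genes, and in 9 of 10 after the rescaling. The part of pericytes in the PDGFRB level was not tested.

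Of 12 tested endothelial genes, 2 were higher and 0 lower, with a median of 0.04, and 0 higher and 3 lower after the rescaling. The all-gene shares were 49.4% higher and 7.66% lower as deposited, and 28.8% in each direction after the rescaling. PECAM1, VWF and CDH5 had log2 fold changes of 0.63, -0.19 and -0.17, none past the test as deposited. After the rescaling CDH5 was lower (-0.95, limma adjusted p = 0.0483). ENG and EGFL7 rose by 1.29 and 1.14 (limma adjusted p = 0.00763 and 0.0210), neither after the rescaling. Endothelial genes summed to 0.0395 and 0.0702% of the listed TPM in the shams and 0.0300 to 0.109% in the injured limbs, with the least in pig 014 and the most in the non-repaired limb of pig 023 and in pig 024. Those were also the limbs with the least and the most CD34. The part of endothelial cells in the CD34 level was not tested.

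Markers of other cells were examined in the same way. Of 10 tested leukocyte genes, 8 were higher, with a median log2 fold change of 2.13, and 6 after the rescaling. Among all tested genes 49.4% were higher as deposited and 28.8% after the rescaling. PTPRC, CD14 and CD68 rose by 2.40, 3.82 and 3.93 (limma adjusted p = 0.000141, 1.07e-06 and 1.21e-06), and CD3E, of T cells, did not pass at 1.21 (limma adjusted p = 0.0723). THY1 is also carried by T cells in some species. Summed leukocyte genes held 0.00214 and 0.00323% of the listed TPM in the shams and 0.0139 to 0.0380% in the injured limbs. The part of leukocytes in the THY1 level was not tested.

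S100B and NCAM1 rose by 1.81 and 1.58 (limma adjusted p = 0.00268 and 0.00899), 2 of 4 tested genes of Schwann cells and nerve. That was close to the 49.4% of all tested genes that were higher. After the rescaling 2 remained higher, against 28.8% of all tested genes. In the non-repaired and the Hya-repaired group none remained. Of 7 tested adipocyte genes, into which cell type fibro-adipogenic progenitors can turn, none was called by limma. Among all tested genes 49.4% were called higher and 7.66% lower. ADIPOQ, PLIN1, FABP4, LPL and PPARG had log2 fold changes of -0.21, -0.14, 0.67, -1.84 and 0.76. After the rescaling LPL was lower (-2.64, limma adjusted p = 0.0115), as were 28.8% of all tested genes. In the muscle fiber, ACTA1, CKM, MYLPF, TNNI2 and TNNC2 fell by 2.36, 2.21, 1.85, 2.16 and 2.19 on the log2 scale (limma adjusted p = 0.0112, 0.0183, 0.0122, 0.00490 and 0.00931).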

How the data were processed

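RNA-seq libraries of 12 limbs were grouped by the sample labels. The authors quantified TruSeq libraries of total RNA from paired reads with kallisto at default parameters on the pig genome (build 9.2), and TPM for 11506 named genes were deposited. The authors tested genes with DESeq2. TPM keep no read depth, so the precision is set by how many limbs there are. RefSeq gene IDs gave a symbol to 618 of 1833 provisional LOC names, and 21 names stored as dates were kept as they stood.

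A gene was tested if some condition had 1 TPM or more in every library (8782 genes). The scale was log2(TPM + 0.5), on which a fold change understates that of low genes. A single limma fit (3.58.1, R 4.3.3, trend and robust) took in every library, and Benjamini and Hochberg's adjustment ran over all genes tested, with a threshold of 0.05. The fit was tested on simulated data. Exact permutation tests used SciPy 1.17.1. The trimmed mean rescaling trims 30% of log ratios and 5% of abundances. The labels do not say more of how replicates relate than the pig, the limb and the condition.

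Other settings were median-of-ratios rescaling, pseudocounts of 0.1 and 1, no or a stricter filter, limma with neither trend nor robust estimation, fits of the compared groups alone, and limbs left out. Besides the members, the genes named are the first 3 of each list, the 2 with the smallest p in VML-injured against sham-operated muscle, the 3 most like each member, and 5 ratios. SPARC and SYNPO2 were named after their values were seen. The members and lists were chosen with earlier results of these data known. Sequences and coordinates were not used here.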

Additional observations from a re-analysis of the deposited data

Results flagged for a closer look

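CTHRC1 in the ECM-repaired limb of pig 014, at 10.01 TPM, lay further from the other 5 limbs of its group than Dixon's test allows at the 95% level, with a gap of 0.704 of the whole range on the log2(TPM + 0.5) scale against a critical value of 0.625. On the TPM scale, tried after seeing the data, the gap was 0.344 of the range and did not pass. Both ends of the 6 ECM-repaired limbs were examined for each of the 8 members, and no other gene passed on the log2 scale. By chance alone about 1 in 20 groups would be marked in this way.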

How the results depend on the processing

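The number of members called higher against sham was 6 or 7 of 8 under every setting tried, except 8 in the non-repaired group when only the compared groups were fitted, and no member was called between injured groups under any of them. Over all tested genes, the number called higher fell under the trimmed mean rescaling to 2535 (VML-injured), 2571 (ECM-repaired) and 1926 (non-repaired), under median-of-ratios rescaling to 2510, 2563 and 1930, and with only the compared groups to 1733 (Hya-repaired). With a limb left out it ranged from 2461 to 4604 (VML-injured), 2592 to 4278 (ECM-repaired), 2185 to 4590 (non-repaired) and 1276 to 3502 (Hya-repaired), lowest in the first 3 without sham pig 025 and in the last without pig 016.

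The log2 fold change of CD34 in the ECM-repaired group against sham turned to -0.245 with trimmed mean and -0.252 with median-of-ratios rescaling, and ranged from -0.10 to 1.15 with a limb left out, in each case without passing the test. CD34 was called in the non-repaired group with only the compared groups (1.28, limma adjusted p = 0.034). Signs also turned between injured groups, where no value passed. In ECM-repaired against injured limbs without ECM, THY1 was 0.00822 with median-of-ratios rescaling and FAP was -0.21 without pig 017. Against non-repaired limbs, FNDC1 in Hya-repaired limbs was 0.23 and 0.20 with the rescalings, and without pig 017 THY1, FAP and FNDC1 were 0.61, 0.22 and 0.94. With a limb left out, the first comparison ranged from -0.41 to 0.37 for THY1, -0.28 to 0.44 for FAP, -0.061 to 0.62 for DPT and -0.54 to 0.36 for FNDC1. The second ranged from -1.24 to 0.33 for THY1, -1.37 to 0.075 for FAP, -0.67 to 0.70 for DPT, -0.54 to 1.09 for PDGFRB, -0.67 to 0.71 for CTHRC1 and -1.04 to 0.76 for FNDC1. PDGFRB lost its call against sham as given above. The cause of these changes was not tested. For single members, 961 of the alternative values kept direction and side of the threshold, 28 turned sign, 10 lost the call and 1 gained it.

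No paired analysis was possible because only pig 017 gave 2 limbs. A group of 2 limbs that loses one has a lone limb, assumed to vary like the other groups. The 2 shams came from pigs that gave no injured limb.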
